A study of Homo sapiens with 6 samples.

Results

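LINC genes are long intergenic noncoding RNA genes whose symbol is LINC followed by a number, a placeholder that is given until a function is known. In MDA-MB-453 cells 84 of the 766 LINC genes in the table were expressed, by the rule that the mean normalized value over all 6 libraries was at least 1. After siRNA against *DUSP6*, 16 of these 84 genes were higher (19.05%), 15 were lower (17.9%) and 53 did not pass the test. Of all 12862 genes tested, 19.7% were higher and 24.7% lower. Among the 84 LINC genes, *LINC00473* rose most, from a mean value of 0.529 to 6.78, and *LINC01132* fell most, from 2.09 to 0.296. In RefSeq 83 of the 84 are noncoding. *LINC00634* is now *SMIM45*, a protein-coding gene, and was not called (log2 fold change -0.12). The genes were chosen by their mean level over both groups and not by the difference between the groups. Even so, 9 of them had a mean of at least 1 in only 1 group, *LINC00473* and *LINC01132* among them, and 8 of the 9 were called. For these 9 the choice was not free of the difference between the groups.

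MDA-MB-453 is an established HER2+ breast cancer cell line, and *DUSP6* is a phosphatase that removes phosphates from the kinase ERK. RNA was sequenced from 3 cultures labelled scrambled siRNA (genotype WT) and 3 labelled *DUSP6* knockdown (genotype *DUSP6* KD), all without a further drug in the labels, to see which genes depend on *DUSP6*. Each group was made with 3 different siRNAs, and neither the siRNA of each library nor the time after transfection is given in the sources used here. The libraries of a group were therefore compared as replicates, and the p-values measure the spread between these libraries. The libraries were made from polyadenylated RNA, so a long noncoding RNA without a poly(A) tail is captured poorly. All results apply to this 1 cell line. In bulk RNA, fewer cells that express a gene and less RNA per cell cannot be told apart.

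Long noncoding RNAs are transcribed by RNA polymerase II and are often spliced and polyadenylated like mRNAs, but are not known to be translated into a long protein. Many stay in the nucleus, are present in few copies per cell and are strongly restricted to certain cell types. Some act on the chromatin of the gene beside them, some bind proteins or microRNAs, and others are hosts of small RNAs that are cut out of their introns or exons. For most LINC genes no role is known.

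The promoters of 3 LINC genes that changed are shown first, followed by the microRNA that lies inside another. They are the promoters of *LINC00473*, the largest increase, of *LINC00205*, which starts 156 bases from a coding gene that also rose, and of *LINC01132*, the largest decrease. Each window holds 250 bases before and 50 bases after the RefSeq start on GRCh38.p14, written 5′ to 3′ on the strand of the gene. Capitals mark GGGCGG, the GC box, on either strand, or TATAAA, the TATA box.
*LINC00473* (chr6:165987990-165988289, minus strand): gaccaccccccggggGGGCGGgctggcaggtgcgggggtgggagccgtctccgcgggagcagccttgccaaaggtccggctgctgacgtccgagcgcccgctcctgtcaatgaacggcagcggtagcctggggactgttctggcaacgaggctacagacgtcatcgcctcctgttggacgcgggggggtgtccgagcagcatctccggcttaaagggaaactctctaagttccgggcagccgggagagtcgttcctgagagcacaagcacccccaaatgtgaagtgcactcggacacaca
*LINC00205* (chr21:45287802-45288101, plus strand): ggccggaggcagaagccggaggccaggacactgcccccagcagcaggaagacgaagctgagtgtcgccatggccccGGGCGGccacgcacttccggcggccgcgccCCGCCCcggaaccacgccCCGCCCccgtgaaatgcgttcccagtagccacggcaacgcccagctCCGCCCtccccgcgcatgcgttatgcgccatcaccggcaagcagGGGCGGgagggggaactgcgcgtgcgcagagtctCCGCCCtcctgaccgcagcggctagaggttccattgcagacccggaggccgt
*LINC01132* (chr1:234723792-234724091, plus strand): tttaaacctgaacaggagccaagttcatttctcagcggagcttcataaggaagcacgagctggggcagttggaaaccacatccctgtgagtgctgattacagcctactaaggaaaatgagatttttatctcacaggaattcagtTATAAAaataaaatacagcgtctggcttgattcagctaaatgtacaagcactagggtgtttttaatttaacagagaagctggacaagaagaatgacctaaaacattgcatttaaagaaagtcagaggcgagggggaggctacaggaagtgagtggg
*LINC00461* spans *MIR9-2* on the same strand. In the mature microRNAs from RefSeq the capitals mark the seed, bases 2 to 8.
hsa-miR-9-5p: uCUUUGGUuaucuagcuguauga
hsa-miR-9-3p: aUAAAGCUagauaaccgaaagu

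The *LINC00473* window had a GC content of 65.7% with 1 GC box, and that of *LINC00205* had 72.3% with 6 GC boxes. The *LINC01132* window had 42.0%, with 1 TATA box and no GC box. Of all 35116 RefSeq promoter windows, 45.0% held a GC box and 11.5% a TATA box on either strand. The interferon-stimulated response element, the E2F letters TTTGGCGC and TTTCCCGC and the E-box CACGTG were also searched on both strands and were found in none of the 3 windows. They occurred in 3.57%, 2.27% and 7.26% of all windows, respectively. A match or its absence describes these letters in this window only. RefSeq held a window for 63 of the 84 genes, so no share over all expressed LINC genes is given.

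The deposited values were reads relative to a scaled library size, and the recovered depth was 45546981 to 85729785 reads per library. *DUSP6* itself was at 144 ± 55.7 with scrambled and 33.0 ± 7.68 with *DUSP6* siRNA (mean ± SD, n = 3 each), in the direction of the labels. Of 13 luminal and apocrine breast cancer markers, such as *ERBB2* and *FOXA1*, all 13 were expressed in the cells, and 11 were lower with *DUSP6* siRNA (adjusted p under 0.05 in limma), against 24.7% of all genes tested. Among 15 markers of basal, stromal, blood and endothelial cells in the table, 13 had a mean under 1, *LUM* had no read in any scrambled siRNA library, and the summed value was 90.5 to 122 with scrambled siRNA and 165 to 196 with *DUSP6* siRNA. Of this sum *COL1A1* made most, which rose with a log2 fold change of 0.90, while *TP63* fell by 1.95 on the log2 scale. Their part in the changes of LINC genes was not tested. Scrambled siRNA replicate 3 was farthest from the median of its group in 41 of the 84 LINC genes, and *DUSP6* siRNA replicate 2 in 44.

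LINC genes were expressed at low levels. The median of their means was 4.66, against 31.3 for all 12862 genes with a mean of at least 1, and 43 of the 84 had a mean under 5. Values are not per length, so they rank genes by reads and not by molecules. The 84 genes together made 0.0907% to 0.101% of the summed values with scrambled siRNA and 0.112% to 0.117% with *DUSP6* siRNA. The sum over all genes was 1033110 to 1135124 with scrambled siRNA and lower, 920927 to 924989, with *DUSP6* siRNA. The sum of the 84 genes differed less, with 1018 to 1045 and 1037 to 1079, respectively. *LINC00674* alone held 30.7% to 36.2% of the sum of the 84 genes. At the edge of the rule, *LINC01311*, *LINC01341* and *LINC00106* were just inside with means of 1.01, 1.04 and 1.11, and *LINC02389*, *LINC02603* and *LINC02731* were just outside with 0.988, 0.987 and 0.982. The fewest reads of any of the 84 genes in any library was 9. They lay on 21 chromosomes, with 13 on chromosome 1, 8 on chromosome 2 and 7 each on chromosomes 7 and X.

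All 12862 genes were tested with limma on log2(value + 1), and a gene was called when its p, adjusted by the method of Benjamini and Hochberg over all of them, was under 0.05. Of all genes tested 44.5% were called, 19.7% higher and 24.7% lower. Of the 84 LINC genes 36.9% were called, with 19.05% higher and 17.9% lower. Values of the 2 groups did not overlap for 41 LINC genes (48.8%), against 57.8% of all genes tested. The median log2 fold change was 0.07 for LINC genes and -0.01 for all genes, and the median absolute change was 0.29 for both. An absolute log2 fold change of at least 1 was seen for 6 LINC genes (7.14%) and for 6.90% of all genes. The median coefficient of variation of the LINC genes was 16.1% with scrambled siRNA and 9.06% with *DUSP6* siRNA, against 12.7% and 6.04% for all genes. For any single gene the two-sided exact permutation test over 3 against 3 libraries cannot go below p = 0.1.

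Of the 84 genes, 9 had a mean of at least 1 in only 1 of the groups, so their means had to lie on different sides of 1. *LINC00473* and *LINC01012* passed through the *DUSP6* siRNA libraries, and *LINC01132*, *LINC00504*, *LINC01208*, *LINC00312*, *LINC01341*, *LINC01588* and *LINC01311* through the scrambled siRNA libraries. All but *LINC01311* were called. Of the 75 genes with a mean of at least 1 in both groups, 14 were higher and 9 lower. Of all 12862 genes tested 19.7% were higher and 24.7% lower. That set was not limited to a mean of at least 1 in both groups. The counts of the 75 are therefore not read as a result about LINC genes. The number of LINC genes called also depended on the libraries included, and so did the number among all genes tested. Leaving out any 1 of the *DUSP6* siRNA libraries cost some increases their call. This is not read as a trait of the LINC genes, and the ranges are given in the closing section.

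**Figure D1:**
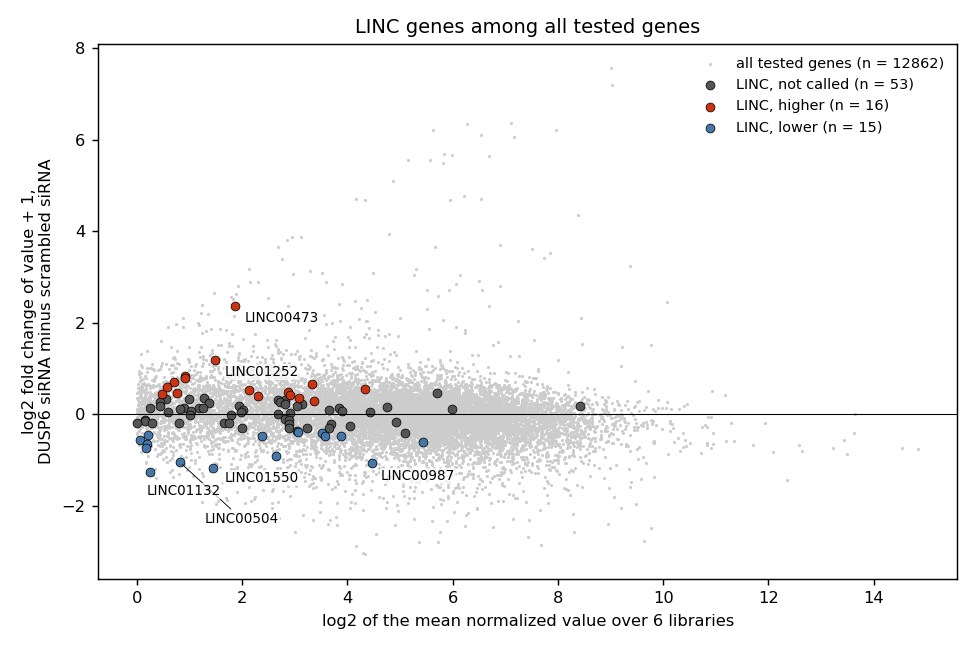
Log2 fold change of the value + 1 (DUSP6 siRNA minus scrambled siRNA, y axis) against the log2 of the mean normalized value over 6 libraries (x axis) for all 12862 tested genes in grey and the 84 LINC genes as large points. Red points are the 16 LINC genes called higher, blue points the 15 called lower and dark points the 53 not called; the 6 with an absolute change of at least 1 carry their names, and most LINC genes lie at the left, at low values.

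Among the increases, *LINC00473* (Entrez gene 90632, chr6:165924048-165988039 of GRCh38, minus strand) stood first. This RNA is known as a cAMP-responsive transcript in several cell types. Its value was 0.655, 0.172 and 0.759 in the scrambled siRNA libraries and 6.71, 6.79 and 6.84 in the *DUSP6* siRNA libraries. All *DUSP6* siRNA libraries were close together and far above every scrambled siRNA library, a 12.8-fold ratio of the means. The log2 fold change was 2.37 (standard error, SE, 0.16, adjusted p = 1.19e-05 in limma), and since 1 is added to each value this understates a change from a low level. On the recovered reads edgeR gave 3.66. In scrambled siRNA replicate 2 the gene rested on 9 reads. Its promoter, printed above, had a high GC content and none of the other letters searched.

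*LINC01252* (chr12:11548030-11564403) was measured at 0.803, 2.22 and 1.09 with scrambled siRNA and at 3.60, 4.94 and 4.25 with *DUSP6* siRNA. The groups did not overlap, although scrambled siRNA replicate 2 stood above the others of its group, and the log2 fold change was 1.19 (SE 0.21, adjusted p = 0.00195 in limma). *LINC00888* (chr3:183447608-183456013), now called *SNHG33* because it is a host of small nucleolar RNAs, went from 1.19, 1.21 and 0.771 to 2.27, 3.41 and 2.39 (log2 fold change 0.84). *LINC00461* (chr5:88538266-88691041), now *MIR9-2HG* and the host of the microRNA printed above, went from 1.10, 1.42 and 0.819 to 2.31, 3.22 and 2.43. Its log2 fold change was 0.79 (SE 0.15, adjusted p = 0.00263 in limma). The libraries measure the host RNA and not the mature microRNA. In both of these hosts *DUSP6* siRNA replicate 2 was the highest library. Of the exon sequence of *LINC00888* 22.3% overlaps another entry of *LINC00888* itself and a small nucleolar RNA gene, both on the same strand. This overlap is thus in part not with a different gene, and its effect on the value is uncertain.

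*LINC02256* rose by a log2 fold change of 0.70, from 0.997, 1.15 and 0.880 to 1.84, 2.37 and 2.58. *LINC01012*, in the histone gene region of chromosome 6, rose by 0.61, from 0.818, 0.939 and 1.16 to 1.80, 2.12 and 2.07. No role is described here for either gene, and in both all *DUSP6* siRNA libraries were above all scrambled siRNA libraries. *LINC00205* (chr21:45288052-45297354) was the increase at the highest level, from 13.7, 14.8 and 20.3 to 23.3, 26.7 and 22.3. Its log2 fold change was 0.56 (SE 0.15, adjusted p = 0.0157 in limma), and scrambled siRNA replicate 3 came closest to the *DUSP6* siRNA libraries. The call of *LINC00205* was lost without scrambled siRNA replicate 1 (adjusted p = 0.0501) and without *DUSP6* siRNA replicate 2 (adjusted p = 0.0745).

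*LINC00893* and *LINC00894*, on chromosome X, are now *EOLA1-DT* and *EOLA2-DT*, divergent transcripts of a pair of duplicated coding genes. *LINC00893* was at 3.40 ± 0.572 and 5.34 ± 0.539 and *LINC00894* at 5.92 ± 0.796 and 8.70 ± 1.14 with scrambled and *DUSP6* siRNA (SD, n = 3 each). The log2 fold changes were 0.53 and 0.49. *LINC00893* shares 35.2% of its 31-base stretches with *EOLA2-DT*, so their reads could have been split between the copies. Of its exon sequence 57.0% overlaps other genes, one on the same strand and *EOLA1* on the opposite strand, so its value is uncertain. The coding genes beside them, listed as *CXorf40A* and *CXorf40B*, were not called, with log2 fold changes of -0.14 and -0.16. The call of *LINC00894* was lost without *DUSP6* siRNA replicate 2 or 3 (adjusted p of 0.0742 and 0.0569).

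The other 7 increases were smaller. They were *LINC02593*, *LINC00476*, *LINC02381*, *LINC00339*, *LINC02210*, *LINC01347* and *LINC01089*, with log2 fold changes from 0.29 (*LINC01089*) to 0.66 (*LINC02593*). *LINC02593* was the called gene whose groups overlapped, at 6.32, 5.54 and 11.6 with scrambled siRNA and 13.1, 13.3 and 10.7 with *DUSP6* siRNA. Its call was lost when any library except scrambled siRNA replicate 3 was left out, with adjusted p-values of 0.0542 to 0.137. *LINC01089*, which has been named LIMT and is known as a transcript lowered by EGF in breast cells, was at 11.4 ± 0.265 with *DUSP6* siRNA against 9.16 ± 0.714 (SD, n = 3 each), with an adjusted p of 0.0463 in limma. That call was lost without 5 of the 6 libraries, all but scrambled siRNA replicate 3 (adjusted p of 0.0783 to 0.154), and 60.6% of its exon sequence overlaps other genes. *LINC00476* lost its call without scrambled siRNA replicate 1 or *DUSP6* siRNA replicate 1 or 2, *LINC02381* and *LINC02210* without *DUSP6* siRNA replicate 1, *LINC00339* without *DUSP6* siRNA replicate 3 and *LINC01347* without any 1 of the *DUSP6* siRNA libraries. In these 5 genes the adjusted p was then 0.0523 to 0.105. Other genes overlap 51.0% of the exon sequence of *LINC00339*, 23.98% of that of *LINC02381* and 9.51% of that of *LINC00476*, and a copy holds 54.5% of the 31-base stretches of *LINC01347*.

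**Figure D2:**
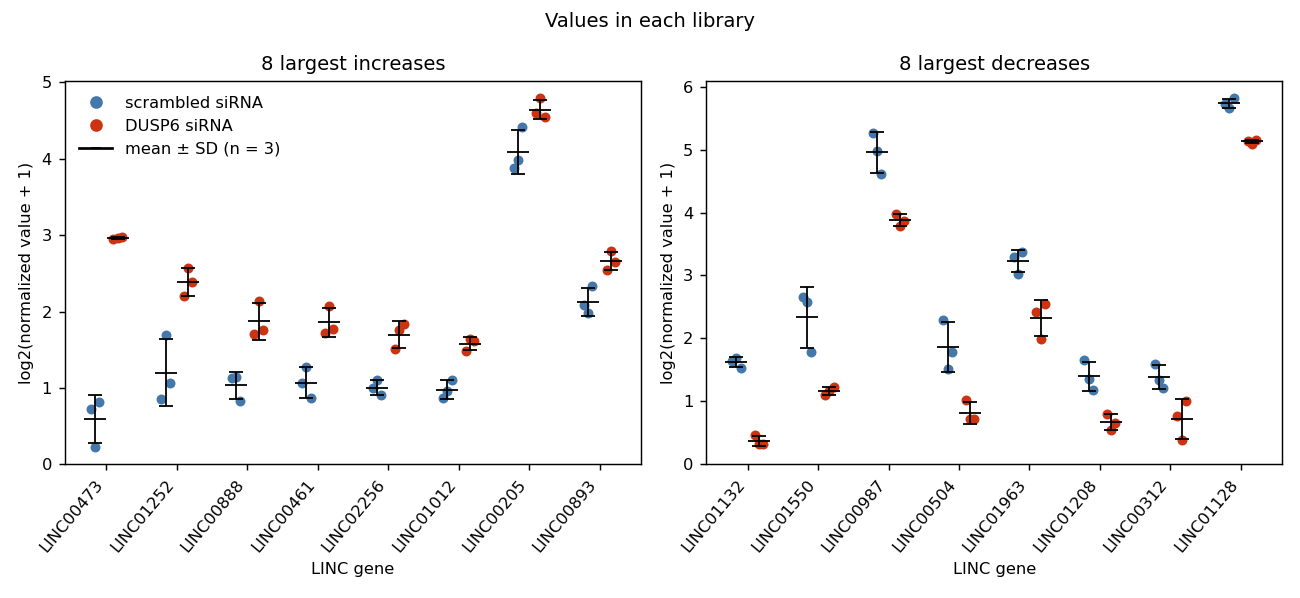
Log2(normalized value + 1) in each library for the 8 largest increases (left) and the 8 largest decreases (right) among the called LINC genes without overlap between the groups. Blue points are the 3 scrambled siRNA libraries, red points the 3 DUSP6 siRNA libraries, and black bars the mean ± SD; LINC00473 shows the widest gap on the left and LINC01132 on the right.

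*LINC01132* (Entrez gene 100506810, chr1:234724042-234731643, plus strand) had the largest decrease. It was at 2.13, 2.24 and 1.90 in the scrambled siRNA libraries and at 0.384, 0.257 and 0.247 in the *DUSP6* siRNA libraries, which was 143, 117 and 158 reads against 19, 21 and 16. The mean was 7.06-fold lower, the log2 fold change of the value + 1 was -1.25 (SE 0.11, adjusted p = 4.97e-05 in limma), and edgeR gave -2.81 on the reads. None of its exon sequence overlaps another annotated gene. The TATA box printed above lies near the middle of the window and not beside the RefSeq start.

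*LINC01550* (chromosome 14) was at 5.28, 5.00 and 2.43 with scrambled siRNA and at 1.15, 1.24 and 1.34 with *DUSP6* siRNA. Scrambled siRNA replicate 3 was lower than the other 2, and still above all *DUSP6* siRNA libraries, and the log2 fold change was -1.17 (SE 0.21, adjusted p = 0.00234 in limma). *LINC00504* (chromosome 4), a gene with a long span, went from 3.91, 1.86 and 2.45 to 1.03, 0.648 and 0.649, a log2 fold change of -1.04. *LINC01963* (chromosome 2), a single-exon gene in the annotation, went from 8.85, 7.15 and 9.33 to 4.35, 3.00 and 4.84, a log2 fold change of -0.91. Neither gene overlaps the exons of another gene. Of the 31-base stretches of *LINC00504*, however, 40.5% also occur in transcripts of other genes, with 18.9% in *HELLPAR*, so part of its reads is uncertain.

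*LINC00987* and *LINC01128* were the decreases at the highest levels. *LINC00987* (chr12:9240073-9262901), beside the alpha-2-macroglobulin gene cluster, fell from 37.5, 30.5 and 23.6 to 14.8, 12.9 and 13.6 (log2 fold change -1.08, SE 0.16, adjusted p = 8.10e-04 in limma). Of its exon sequence 24.5% overlaps genes of the opposite strand, among them a pseudogene of the prothymosin gene *PTMA*, so part of its reads is uncertain. *LINC01128* (chr1:827591-859446) fell from 51.9, 49.7 and 55.2 to 34.3, 33.2 and 34.5 and had the narrowest spread of the named decreases. Its log2 fold change was -0.60 (SE 0.09, adjusted p = 7.88e-04 in limma).

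*LINC01208* (chromosome 3) fell from 2.14, 1.55 and 1.28 to 0.748, 0.465 and 0.572. *LINC00312* (chr3:8571782-8574668) fell from 2.01, 1.53 and 1.33 to 0.708, 0.306 and 1.02. The groups did not overlap in either, with log2 fold changes of -0.73 and -0.66, and *LINC00312* lost its call without scrambled siRNA replicate 1 (adjusted p = 0.0510). The other 7 decreases were *LINC01341*, *LINC00899*, *LINC01238*, *LINC00993*, *LINC01588*, *LINC01881* and *LINC01399*, with log2 fold changes from -0.57 (*LINC01341*) to -0.38 (*LINC01399*). *LINC00993* is a transcript of breast tissue that is known to be low in triple-negative tumors. It went from 17.7, 15.8 and 18.4 to 12.6, 10.7 and 13.1, and 19.6% of its exon sequence overlaps an entry of the same strand. The overlap with other genes was 100% for *LINC01881* and 20.1% for *LINC01341*. Of these 7, *LINC01881* lost its call without scrambled siRNA replicate 1 or *DUSP6* siRNA replicate 1 or 3 (adjusted p of 0.0512 to 0.0893), and *LINC01399* without any library except scrambled siRNA replicate 3 (adjusted p of 0.0501 to 0.158).

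**Figure D3:**
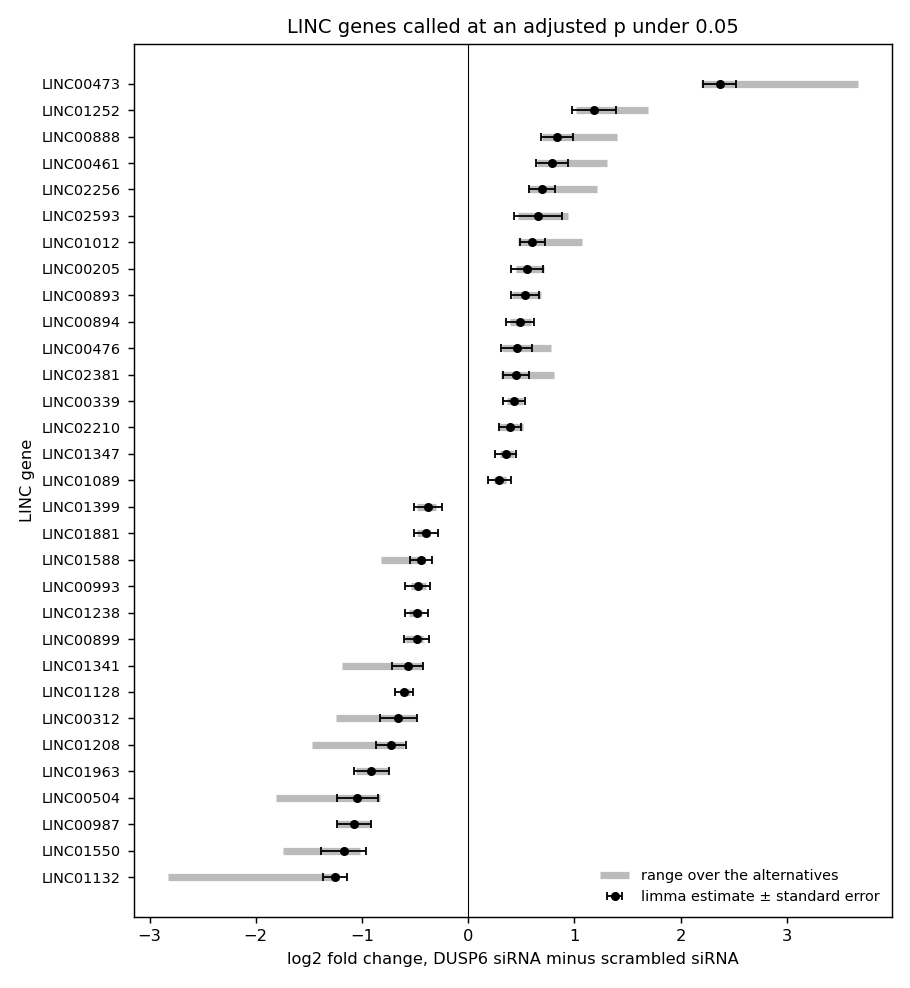
Log2 fold change (DUSP6 siRNA minus scrambled siRNA, x axis) of the 31 called LINC genes (y axis), with black points for the limma estimate, thin bars for ± the standard error and grey bars for the lowest to the highest value over the alternatives tried. None of the grey bars crosses 0; those of genes with low values, such as LINC00473 and LINC01132, reach furthest because the alternatives include a smaller pseudocount and tests on reads.

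Of the 31 calls, 19 stayed past the threshold in the same direction under every alternative that tested them, 7 of the increases and 12 of the decreases. These 19 include *LINC00473*, *LINC01012*, *LINC01132*, *LINC00504*, *LINC01208*, *LINC01341* and *LINC01588*, which had a mean of at least 1 in only 1 group. For them the choice was not free of the difference between the groups, so their stability is no separate support. The same share was not taken over all genes tested. None of the 31 changed direction. Exons that overlap another annotated entry by over 5%, or a copy that holds over 25% of the 31-base stretches, marked 11 of the 31. For *LINC00888* and *LINC01347* the overlapping entries include another entry of the same gene. Among the 35 LINC genes with a known model and no exon overlap at all, 3 were higher and 8 lower. Both are smaller shares than the 19.7% and 24.7% of all genes tested. For 8 of the 84 genes, *LINC00473*, *LINC00312* and *LINC02256* among them, no model was matched and the overlap is not known.

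The most abundant LINC genes mostly did not pass the test. *LINC00674* led with 316, 319 and 329 with scrambled siRNA and 344, 391 and 359 with *DUSP6* siRNA. Its groups did not overlap, yet the log2 fold change of 0.18 was not called (SE 0.09, adjusted p = 0.121 in limma). It was called under quantile normalization, at 0.44 (adjusted p = 0.00314). Nearly all of its annotated exon sequence (97.5%) is shared with an overlapping gene. *LINC01000* (log2 fold change 0.12), *LINC00869* (0.15) and *LINC01578* (-0.17) were not called. *LINC01578* is now *CHASERR*, a transcript known to restrain the chromatin remodeler gene *CHD2* beside it, and *CHD2* had a log2 fold change of -0.29 with an adjusted p of 0.109 in limma. *LINC01000* passed without scrambled siRNA replicate 2 (0.25, adjusted p = 0.0486).

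Scrambled siRNA replicate 3 decided 2 of the abundant genes. *LINC02067* was at 30.6, 29.5 and 77.7 with scrambled siRNA and at 55.4, 59.6 and 58.6 with *DUSP6* siRNA, so that this library lay above and the other 2 below all *DUSP6* siRNA libraries. The log2 fold change was 0.47 (adjusted p = 0.238 in limma), and 0.92 without that library (adjusted p = 1.33e-04). *LINC01278* was at 48.5, 43.1 and 27.5 with scrambled siRNA and at 30.7, 26.7 and 29.4 with *DUSP6* siRNA. There the log2 fold change was -0.40 (adjusted p = 0.107), and -0.64 without that library (adjusted p = 0.00146).

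Of a list of 30 LINC genes with a described role, chosen with results of these data known, 24 were in the table and 9 were expressed. Among the 9, *LINC00461* and *LINC01089* were higher, *LINC00993* was lower and the median log2 fold change was 0.23. For comparison, the full set of 12862 genes had 19.7% increases, 24.7% decreases and a median of -0.01. With only 9 genes, chosen in this way, neither the counts nor the median are read as a trait of the list. *LINC01087*, *LINC00472* and *LINC00963* did not overlap between the groups but were not called, with log2 fold changes of 0.27, 0.25 and 0.23 and adjusted p-values of 0.0981, 0.0984 and 0.0917. *LINC01087* was called without scrambled siRNA replicate 3 (0.36, adjusted p = 0.0263). *LINC00467*, which encodes a small mitochondrial protein, was at 18.9, 10.9 and 11.6 against 14.6, 15.6 and 14.4. It was not called at 0.14, but was without scrambled siRNA replicate 1 (0.37, adjusted p = 0.0249). *LINC01138* and *LINC00665* had log2 fold changes of 0.15 and 0.04, which turned to -0.0083 and -0.019 under quantile normalization.

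Each LINC gene was set beside the tested gene nearest to it in RefSeq, since some of these RNAs act on their neighbors and since a shared promoter or unresolved reads can join them. Of the 16 higher LINC genes, the nearest gene was higher in 7, lower in 2 and not called in 7. Of the 15 lower LINC genes, it was higher in 0, lower in 7 and not called in 8. Of the 53 LINC genes not called, it was higher in 9, lower in 18 and not called in 26. Of all genes tested 19.7% were higher and 24.7% lower. These counts were not tested. The counting used Rsubread at its default settings, which ignore strand, so reads of neighbors that overlap on opposite strands cannot be told apart.

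*LINC00473* lies inside the span of *PDE10A*, a phosphodiesterase that breaks down cAMP and cGMP. *PDE10A* was at 1.01, 1.11 and 1.64 with scrambled siRNA and at 2.75, 3.22 and 3.34 with *DUSP6* siRNA. It thus also rose without overlap between the groups, with a log2 fold change of 0.87 (adjusted p = 0.00106 in limma), against 2.37 for *LINC00473*. *LINC00461* lies 26.1 kb from *MEF2C*, a transcription factor of muscle and neurons, which rose by a log2 fold change of 0.71, to 40.5 ± 1.63 (SD, n = 3) against 24.5 ± 3.64. *LINC00205* lies 0.156 kb from *POFUT2*, which adds fucose to secreted proteins and rose from 18.1, 24.6 and 25.5 to 34.8, 35.1 and 34.0, a log2 fold change of 0.60. *LINC02256* lies 3.02 kb from the pseudogene *WHAMMP1* (0.59), in a region of duplicated sequence.

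*LINC00888* had neighbors that moved in opposite directions. *MCF2L2*, 18.99 kb away, fell by 1.25 on the log2 scale, and *KLHL24*, 180 kb away, rose by 1.16. The nearest gene of *LINC01252* was *ETV6*, a transcriptional repressor, with a log2 fold change of -0.48 (adjusted p = 0.0508). *H2AC13*, nearest to *LINC01012*, was not called at 0.25.

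Among the decreases, *LINC00312* overlaps the span of *LMCD1*, a transcriptional cofactor, which fell from 44.8, 35.6 and 31.7 to 23.7, 16.3 and 22.0 (log2 fold change -0.83, adjusted p = 0.00389 in limma). *TBL1XR1*, a corepressor subunit 384 kb from *LINC01208*, had a log2 fold change of -1.29, with 113 ± 9.01 against 279 ± 17.9 (SD, n = 3 each). *IRF2BP2*, also a corepressor and 114 kb from *LINC01132*, had a log2 fold change of -0.51. *VRK1*, a kinase 1044 kb from *LINC01550*, also had -0.51, and *MIR1244-3* beside *LINC00987* had -0.55. The value of *MIR1244-3* comes from reads assigned to its gene and does not measure the mature microRNA. *XRCC5*, a DNA repair subunit 10.6 kb from *LINC01963*, was not called at -0.06, nor was *CPEB2* beside *LINC00504* at 0.19, nor *LINC00115* beside *LINC01128* at -0.20. *ANKRD30A*, a breast differentiation antigen gene 43.3 kb from *LINC00993*, was chosen after its values were seen and fell by 0.79 on the log2 scale.

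**Figure D4:**
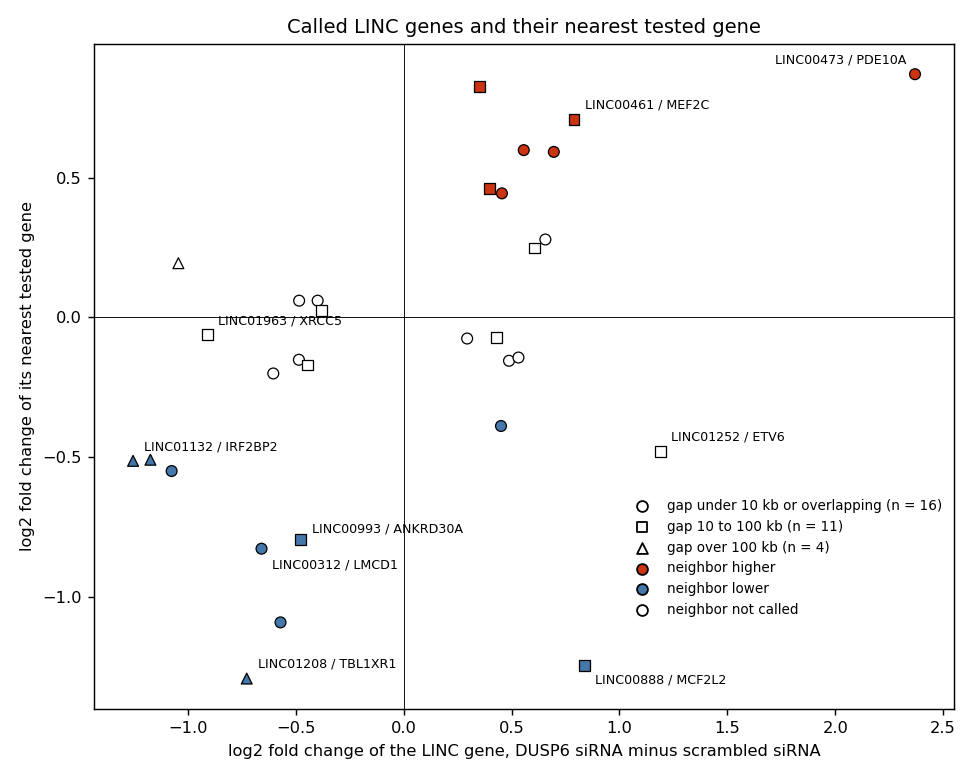
Log2 fold change of the nearest tested gene (y axis) against that of the LINC gene (x axis), both DUSP6 siRNA minus scrambled siRNA, for the 31 called LINC genes. The shape gives the gap between the genes and the color the call of the neighbor (red higher, blue lower, white not called); LINC00473 with PDE10A stands at the upper right and LINC00888 with MCF2L2 at the lower right.

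Other gene groups give the setting of these changes. Of 188 tested antisense genes, whose symbol ends in AS and a number, 33.5% were called, 36 higher and 27 lower. The same share was 20.8% of 24 divergent transcripts, 23.5% of 17 small nucleolar RNA hosts and 21.4% of 14 microRNA hosts. Of 48 tested other long noncoding RNA genes in a list of well-known ones, 7 were higher and 7 lower, with a median log2 fold change of -0.01. *HCP5* (log2 fold change 2.89) and *PANDAR* (1.07) rose, and *MALAT1* fell by 1.10 on the log2 scale. Of 12 long noncoding RNAs tied to interferon, 4 were tested. *HCP5* and *BISPR* (2.16) rose, while *NEAT1* and *NRAV* had log2 fold changes of -0.58 and -0.42. All 28 tested type I interferon response genes were higher, with a median of 4.70 led by *IFI6* (7.56), *IFIT1* (7.19) and *OASL* (6.37), and 26 of 30 E2F targets were lower, with a median of -0.69 led by *RRM2* (-1.60), *E2F2* (-1.34) and *E2F1* (-1.32). None of the 84 LINC genes was in the interferon list.

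Of 38 genes for the processing and decay of long noncoding RNA, 4 were higher and 7 lower, with a median log2 fold change of -0.08. Both are smaller shares than the 19.7% higher and 24.7% lower among all genes tested. *EXOSC2*, a subunit of the RNA exosome, fell by 0.84 on the log2 scale. *PABPN1*, the nuclear poly(A)-binding protein, rose by 0.78, and *INTS2*, a subunit of the Integrator complex that ends transcription, rose by 0.66. Reads of *PABPN1* can be split with a readthrough gene that shares its exons. The part of these genes in the changes of the LINC genes was not tested.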

How the data were processed

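RNA-seq of 3 scrambled siRNA and 3 *DUSP6* siRNA libraries was analysed, with the groups taken from the labels. The authors aligned the reads to hg38 and assigned them to RefSeq genes with Rsubread at its default settings, without use of the strand, and deposited 1 normalized signal value per gene and library. The submitters' processing notes also name bcl2fastq and edgeR. In each library 100% of the values were whole reads times 1 step (tolerance 0.001), with scaling factors as in edgeR's TMM method. There were 0 unmapped value columns. Recovered depth was 45546981 to 85729785 reads. For genes with few reads, counting error adds to the replicate spread.

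The 12862 genes with a mean of at least 1 were tested with limma 3.58.1 (lmFit, eBayes with a trend) in R 4.3.3 on log2(value + 1), with Benjamini-Hochberg adjustment over all of them. Tried in its place were a smaller pseudocount (0.1), all genes or those with a mean of at least 10, median-of-ratios and quantile scaling, the replicate number as a block, eBayes with no trend, each library left out in turn, LINC genes without exon overlap, and edgeR 4.0.16 and DESeq2 1.42.0 on the recovered reads. Keeping LINC genes with a mean of at least 1 in both groups was added after the data were seen.

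Positions and promoters were taken from RefSeq on GRCh38.p14, which held all 84 genes. Exon overlap was taken from GENCODE on GRCh38, which held 76 and is not the annotation the authors counted on. The limit of 25% for a copy replaced a stricter one after its result had been seen.

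The LINC genes and lists were chosen with earlier results of these data known. Genes named were the 8 most abundant, the 8 largest increases and decreases without overlap and the tested genes beside them, members of lists of LINC genes with a role, and up to 3 called genes per other list. The other called LINC genes, those that 1 library decided, *CHD2*, *CXorf40A*, *CXorf40B* and genes of the closing section were named after their values were seen. *TRERF1*, a coding gene entered in a list by mistake, was dropped, and 1 marker gene is not reported here.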

Additional observations from a re-analysis of the deposited data

How the results depend on the processing

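The numbers of LINC genes called were 16 higher and 15 lower. Without a filter 10 were higher, with a mean of at least 10 the numbers were 3 and 5 because only 21 LINC genes remained, and among LINC genes without exon overlap they were 3 and 8. With a mean of at least 1 in both groups 9 were lower, a limit that was not set for all genes tested. Leaving out 1 library gave 10 to 19 higher and 12 to 19 lower LINC genes, and 1574 to 3183 higher genes among all tested, against 2540. The range of lower genes among all tested is not given here. With a mean of at least 10, 1639 of all genes were higher, as were 4 of the other long noncoding RNAs and 1 of those tied to interferon, and 0 markers of other cells were lower. Under quantile normalization 1 long noncoding RNA tied to interferon and 4 processing and decay genes were lower, 1 luminal marker was higher, and the log2 fold changes of *LINC01138* and *LINC00665* turned to -0.0083 and -0.019. For the named and called LINC genes, 563 of the values under the alternatives kept direction and side of the threshold, 46 lost a call, 6 gained one and 2 changed direction. The labels number the libraries of both groups 1 to 3. The deviations of libraries with the same number correlated at 0.005, 0.0868 and -0.0764, so no pairing by number was seen. With 3 libraries per group this is a weak check and does not settle whether they were paired. With the replicate number as a block, 16 LINC genes were higher and 16 lower, and of the named genes the call of *LINC01089* was lost (adjusted p = 0.0951). The causes of these shifts were not tested. Genes with few reads are the limit of the depth, since a value of 1 was 49.5 to 83.0 reads.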

Other observations

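Some LINC genes under the mean of 1 also differed between the groups, in smaller shares than among all genes. Without the filter, edgeR on the recovered reads called 34 of these 682 genes higher and 17 lower with *DUSP6* siRNA, against 14.2% and 15.7% of all 22807 genes. Limma without the filter called 38 and 19, against 13.1% and 14%. With both tools and in both directions the share of the 682 was smaller than that of all genes. The genes given here were chosen after their values were seen. *LINC02328* had 3, 2 and 6 reads in the scrambled siRNA libraries and 43, 86 and 83 reads in the *DUSP6* siRNA libraries. *LINC00487* had 0 reads in every scrambled siRNA library and 11, 14 and 16 reads with *DUSP6* siRNA. *LINC01093* went the other way, from 41, 38 and 48 reads to 4, 1 and 2 reads, and *LINC00885* from 16, 13 and 11 reads to 0, 1 and 0. In all 4 genes the groups did not overlap, but since the genes were picked for their values this is no separate result. These reads are not scaled for depth, which was 45546981 to 85729785 reads per library.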
